A study of Mus musculus with 8 samples.

Results

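The clustered replication-dependent histone genes were described across 4 groups of C2C12 myotubes. The members were the genes that had a probe set of their own and a symbol beginning H2ac, H2bc, H3c or H4c, since 0 symbols of the array annotation began with the older prefixes Hist1h to Hist4h. Each gene was represented by its probe set with the highest mean over the 8 arrays. There were 21 members among 22180 genes with a single-gene probe set: 6 H2A, 8 H2B, 0 H3 and 7 H4 genes. Of these, 11 passed the filter on dim genes and were tested with 13308 genes in all: 3 H2A, 5 H2B and 3 H4 genes. The RefSeq gene table lists 57 protein-coding genes of these names, and the other 36, which include all 12 H3 genes, were on the array only through probe sets shared by several histone genes.

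C2C12 is a mouse myoblast line whose cells fuse into multinucleated myotubes when differentiated. The myoblasts carried a retrovirus that expressed a short hairpin RNA (shRNA), either against Baf60c or a scrambled control. Baf60c is encoded by Smarcd3 and belongs to the BAF complex, which remodels chromatin. All groups were differentiated and then kept for 12 h at a set glucose concentration. The groups were knockdown at 10 mM glucose, knockdown at 1 mM, control at 10 mM and control at 1 mM, with 2 arrays each. The series design calls the replicates biological and independent. Total RNA was measured on an Affymetrix Mouse Gene ST 2.1 array, and every value below is a log2 expression value made by the RMA method. The labels name a standard Affymetrix labelling protocol, and how that reaction was primed was not given in the sources used here.

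Replication-dependent histone genes encode the H2A, H2B, H3 and H4 proteins that package newly made DNA into nucleosomes. Their transcripts accumulate in S phase, when the cell copies its genome, and end in a stem-loop bound by Slbp instead of a poly(A) tail. Npat, a substrate of cyclin E-Cdk2, drives their transcription from gene clusters, which in the mouse lie mainly on chromosomes 13 and 3. Myotube nuclei have left the cell cycle, while unfused cells in such a culture can still divide.

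The knockdown target could be read only through a probe set shared by Smarcd3 and Chpf2, at log2 values of 3.90 and 4.49 in knockdown myotubes at 10 mM and 3.01 and 2.77 at 1 mM, against 6.27 and 6.09 in control myotubes at 10 mM and 5.62 and 5.40 at 1 mM. Replicate arrays correlated at 0.987 to 0.990 across the 13308 tested genes. All 15 myotube markers passed the filter, and their mean log2 value per array lay between 7.08 and 9.44. In bulk RNA, fewer cells of a type and less RNA per cell cannot be told apart.

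To show what the upstream sequences of these genes share and where they differ, the 250 bases before the annotated start were taken from RefSeq (build GRCm38.p6), which held such a window for 19 of the 21 members. H2bc21 and H4c14 had none. The windows shown are those of H2ac10 and H2ac20, which rose with glucose in both knockdown and control myotubes, of 3 H2B genes that moved in different directions, and of the H4 gene H4c12, which was not called. They lie at chr13:23533625-23533874 on the plus strand (H2ac10), chr3:96220881-96221130 on the minus strand (H2ac20), chr13:23746484-23746733 on the plus strand (H2bc3), chr13:21721794-21722043 on the plus strand (H2bc14), chr3:96269450-96269699 on the plus strand (H2bc18) and chr13:21750554-21750803 on the minus strand (H4c12). Each is written 5′ to 3′ on the gene's strand, and capitals mark matches to the octamer ATTTGCAT, to CCAAT or to TATAAA on either strand.
H2ac10: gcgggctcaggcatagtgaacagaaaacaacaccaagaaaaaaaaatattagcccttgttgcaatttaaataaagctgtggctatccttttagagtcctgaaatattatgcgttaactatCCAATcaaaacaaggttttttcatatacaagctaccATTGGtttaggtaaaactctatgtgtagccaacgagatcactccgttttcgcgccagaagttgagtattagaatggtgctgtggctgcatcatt
H2ac20: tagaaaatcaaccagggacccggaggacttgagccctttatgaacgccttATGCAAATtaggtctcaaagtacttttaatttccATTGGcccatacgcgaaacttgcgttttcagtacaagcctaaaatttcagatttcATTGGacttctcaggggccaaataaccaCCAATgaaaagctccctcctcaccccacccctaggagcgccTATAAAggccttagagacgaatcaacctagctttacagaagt
H2bc3: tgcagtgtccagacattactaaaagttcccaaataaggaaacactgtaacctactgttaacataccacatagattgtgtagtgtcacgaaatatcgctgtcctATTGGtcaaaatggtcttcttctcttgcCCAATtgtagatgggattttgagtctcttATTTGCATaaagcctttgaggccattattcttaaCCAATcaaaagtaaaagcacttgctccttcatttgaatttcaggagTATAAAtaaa
H2bc14: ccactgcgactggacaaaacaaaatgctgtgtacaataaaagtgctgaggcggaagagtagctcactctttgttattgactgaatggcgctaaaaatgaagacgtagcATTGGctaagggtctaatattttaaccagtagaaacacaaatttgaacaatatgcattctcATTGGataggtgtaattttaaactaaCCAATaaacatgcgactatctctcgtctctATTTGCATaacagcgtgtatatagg
H2bc18: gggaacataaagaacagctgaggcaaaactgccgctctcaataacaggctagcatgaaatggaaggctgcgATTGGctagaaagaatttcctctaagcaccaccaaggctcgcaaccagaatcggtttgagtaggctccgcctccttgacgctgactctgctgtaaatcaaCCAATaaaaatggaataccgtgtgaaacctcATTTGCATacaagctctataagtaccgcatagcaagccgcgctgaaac
H4c12: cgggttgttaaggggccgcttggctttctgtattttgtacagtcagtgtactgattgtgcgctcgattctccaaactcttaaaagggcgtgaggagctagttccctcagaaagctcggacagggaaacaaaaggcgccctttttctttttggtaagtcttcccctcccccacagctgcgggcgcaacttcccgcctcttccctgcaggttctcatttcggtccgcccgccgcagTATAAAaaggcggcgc
The octamer is the binding sequence of Oct-1, the product of Pou2f1 and a known regulator of H2B promoters. CCAAT is bound by NF-Y, and TATAAA is the consensus of the TATA box.

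The octamer was found in 1.6% of all 32851 RefSeq windows of this length, in 5 of the 7 H2B members with a window, in 3 of the 6 H2A members and in 0 of the 6 H4 members. Over all windows of each class, members or not, it was in 7 of 15 for H2B, 6 of 17 for H2A and 0 of 11 for H4. The windows of H2ac12 and H2bc12 overlap on opposite strands, as do those of H2ac1 and H2bc1. In each of these pairs the octamer is the same site, counted for both genes. All 4 tested H2B genes with a window held the octamer, at 90 bases before the start in H2bc3, 48 in H2bc18, 30 in H2bc12 and 25 in H2bc14. H2bc18, which fell with glucose in both shRNA backgrounds, and H2bc3, which rose in control myotubes, therefore shared this element. CCAAT was present in all 13 H2A and H2B windows, where the overlapping pairs again share sites, and in 1 of the 6 H4 windows, against 33.8% of all windows. TATAAA was present in 10 of the 19 member windows, against 12.4% of all. No matched bases of one motif overlapped those of another. Such matches describe the letters of these windows and were not tested as binding sites.

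Clustered histone genes moved with glucose in both directions. The H2A genes H2ac10 and H2ac20 rose in knockdown and in control myotubes, and the H2B gene H2bc18 fell in both. In knockdown myotubes, 2 of the 11 tested genes rose and 2 fell, where 25.1% of all tested genes were called, 14.5% higher and 10.6% lower. In control myotubes, 4 of the 11 rose and 1 fell, where 25.3% of all tested genes were called, 13.2% higher and 12.1% lower. A call is a two-sided limma test across all tested genes with a Benjamini-Hochberg adjusted p under 0.05. The knockdown and control glucose comparisons share no arrays but use the same estimate of each gene's spread. In both, 3 members were called in the same direction, and the share of all tested genes for which that held was not computed. The tested members had a median log2 change of 0.32 in knockdown and 0.47 in control myotubes, beside 0.03 and -0.01 for all tested genes. With 1 array left out these medians ran from 0.046 to 0.44 in knockdown and from 0.38 to 0.55 in control myotubes, and over all 21 members, with no filter on dim genes, they were -0.094 and 0.019. These counts and medians describe the 11 members that passed the filter, not all 21.

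**Figure D1:**
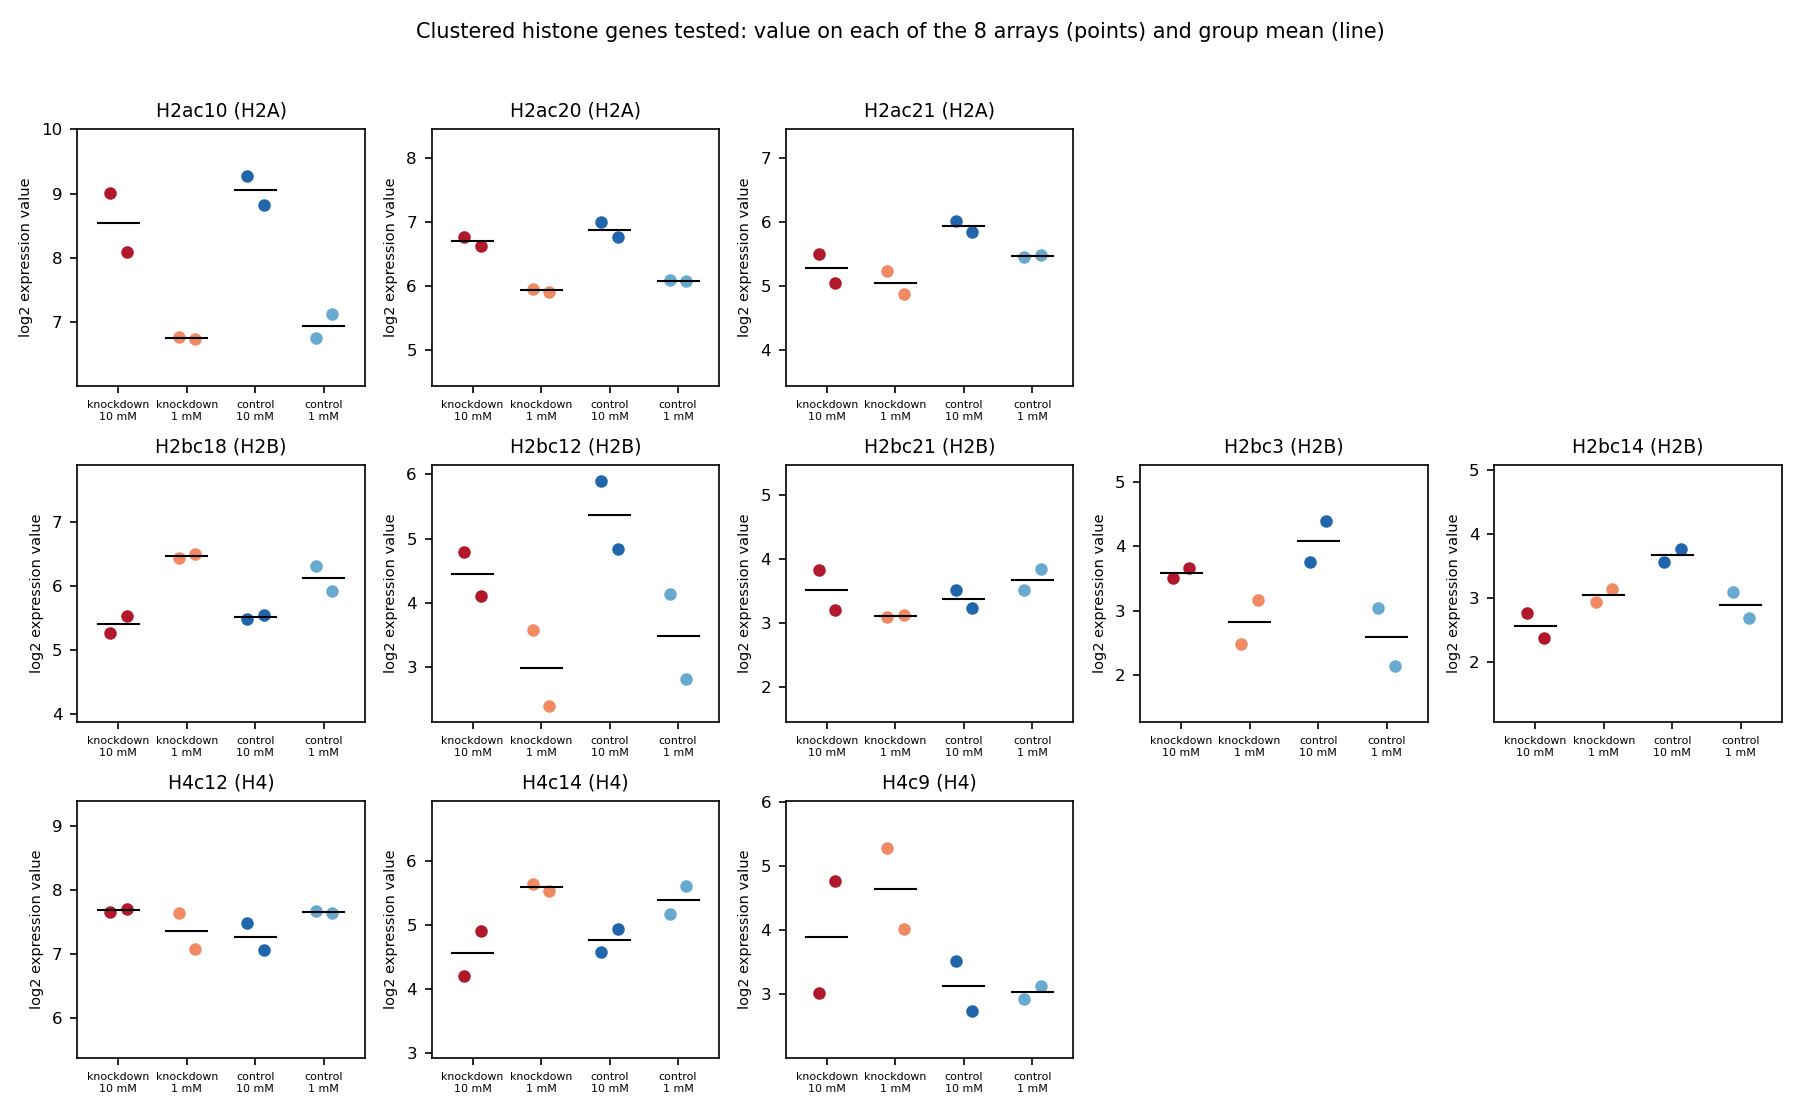
Log2 expression value (vertical axis, a span of 4 log2 units in each panel) of the 11 tested clustered histone genes on each array, by group; points are arrays and lines are means of 2 arrays. H2ac10 and H2ac20 are higher and H2bc18 is lower on every 10 mM array than on any 1 mM array.

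Among the H2A genes, 2 of 3 rose in each comparison. H2ac10 (older symbol Hist1h2af, chromosome 13) had log2 values of 9.01 and 8.09 in knockdown myotubes at 10 mM and 6.77 and 6.74 at 1 mM, against 9.28 and 8.82 in control myotubes at 10 mM and 6.75 and 7.13 at 1 mM. All 4 arrays at 10 mM lay above all 4 at 1 mM. The log2 change was 1.79 ± 0.31 (SE, limma adjusted p = 0.00536), or 3.46-fold, in knockdown and 2.11 ± 0.31 (adjusted p = 0.00309), or 4.32-fold, in control myotubes. In its window CCAAT matches start 130 and 94 bases before the start, with no octamer and no TATAAA.

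H2ac20 (Hist2h2ac, chromosome 3) had log2 values of 6.77 and 6.63 in knockdown myotubes at 10 mM and 5.96 and 5.91 at 1 mM, against 6.99 and 6.77 in control myotubes at 10 mM and 6.09 and 6.08 at 1 mM. Again every 10 mM array was above every 1 mM array. It rose by a log2 change of 0.76 ± 0.13 in knockdown (SE, limma adjusted p = 0.00589) and 0.80 ± 0.13 in control myotubes (adjusted p = 0.00542), a 1.70-fold and a 1.74-fold difference. H2ac21 (Hist2h2ab), its neighbour on chromosome 3, had 5.50 and 5.05 in knockdown myotubes at 10 mM and 5.23 and 4.87 at 1 mM, against 6.02 and 5.85 in control myotubes at 10 mM and 5.45 and 5.48 at 1 mM. Its groups overlapped in knockdown and not in control myotubes, and it was not called in either, with log2 changes of 0.22 ± 0.19 and 0.47 ± 0.19 (limma adjusted p = 0.455 and 0.121). A second, dimmer probe set of H2ac21 lay at 1.59 to 2.35. Averaging both probe sets turned its change in knockdown myotubes to -0.14.

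The 5 tested H2B genes moved apart. In knockdown myotubes 0 rose, 1 fell and 4 were not called, and in control myotubes 2 rose, 1 fell and 2 were not called. H2bc18 (Hist2h2bb, chromosome 3) had log2 values of 5.26 and 5.53 in knockdown myotubes at 10 mM and 6.44 and 6.50 at 1 mM, against 5.48 and 5.55 in control myotubes at 10 mM and 6.32 and 5.92 at 1 mM. Every array at 10 mM lay below every array at 1 mM. It fell by 1.07 ± 0.17 on the log2 scale in knockdown myotubes (SE, limma adjusted p = 0.00399) and fell by 0.60 ± 0.17 in control myotubes (adjusted p = 0.0408). The call in control myotubes is at the edge of the threshold: leaving out any array other than the second control array at 1 mM ended it, with adjusted p of 0.0527 to 0.185. It was also lost under 4 of the 8 other settings, at adjusted p of 0.0540 to 0.0769.

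H2bc3 (Hist1h2bb, chromosome 13) had log2 values of 3.51 and 3.67 in knockdown myotubes at 10 mM and 2.48 and 3.16 at 1 mM, against 3.76 and 4.39 in control myotubes at 10 mM and 3.04 and 2.14 at 1 mM. The higher glucose groups did not overlap the lower ones in either background. It rose in control myotubes by a log2 change of 1.48 ± 0.36 (SE, limma adjusted p = 0.0220), and its change in knockdown myotubes was 0.77 ± 0.36 (adjusted p = 0.166). Without the second control array at 1 mM its control change was 1.03 (adjusted p = 0.107), and without the second at 10 mM it was 1.17 (0.125).

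H2bc14 (Hist1h2bm, chromosome 13) had log2 values of 2.77 and 2.38 in knockdown myotubes at 10 mM and 2.94 and 3.15 at 1 mM, against 3.57 and 3.77 in control myotubes at 10 mM and 3.09 and 2.69 at 1 mM. The control arrays at 10 mM were the highest of the 8, and the knockdown arrays at 10 mM included the lowest. It rose in control myotubes by a log2 change of 0.78 ± 0.20 (SE, limma adjusted p = 0.0271), and its change in knockdown myotubes was -0.47 ± 0.20 (adjusted p = 0.130). Leaving out the second control array at 1 mM, the first at 10 mM or the second at 10 mM ended the call, with adjusted p of 0.138, 0.0622 and 0.132.

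H2bc12 (Hist1h2bk, chromosome 13) had log2 values of 4.78 and 4.10 in knockdown myotubes at 10 mM and 3.58 and 2.39 at 1 mM, against 5.90 and 4.83 in control myotubes at 10 mM and 4.14 and 2.81 at 1 mM. Within each background the 10 mM group did not overlap the 1 mM group, but replicates of a group lay far apart. Its changes of 1.46 ± 0.58 in knockdown and 1.89 ± 0.58 in control myotubes were not called (SE, limma adjusted p = 0.112 and 0.0517). The control change passed the threshold under 4 of 7 other settings (adjusted p = 0.00165 to 0.0498) and without any of 3 single arrays (0.0389 to 0.0440), and the knockdown change passed under the replicate block alone (0.00309). With 1 array left out the changes ran from 0.86 to 2.05 in knockdown and from 1.22 to 2.55 in control myotubes. H2bc12 is transcribed head to head with H2ac12, and their promoter windows, counted with 50 bases after the start, share 277 bases. The probe set of H2ac12 alone was too dim to test, but the gene is also listed on 9 shared probe sets. Its level therefore cannot be read from the single-gene set. The file holds no detection call, so whether group means below a log2 value of 3, a bound chosen after seeing the data, lie above background is unknown. That applies to H2bc3 at 1 mM in both backgrounds, to H2bc12 in knockdown myotubes at 1 mM, and to H2bc14 in knockdown myotubes at 10 mM and in control myotubes at 1 mM.

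H2bc21 (Hist2h2be, chromosome 3) is 1 of 2 tested genes of the list reported to give polyadenylated mRNA in differentiated cells. It had log2 values of 3.83 and 3.20 in knockdown myotubes at 10 mM and 3.09 and 3.13 at 1 mM, against 3.51 and 3.23 in control myotubes at 10 mM and 3.52 and 3.83 at 1 mM. Neither change was called: 0.41 ± 0.23 in knockdown and -0.30 ± 0.23 in control myotubes (SE, limma adjusted p = 0.240 and 0.373). With 1 array left out they ran from 0.098 to 0.72 and from -0.46 to -0.15, uncalled throughout.

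The 3 tested H4 genes had no member that rose. In knockdown myotubes 1 fell and 2 were not called, and in control myotubes 0 of 3 were called, with 1 at an unadjusted limma p under 0.05 and 0 called by limma with a variance trend and robust moderation or with only the compared groups in the fit. H4c14 (Hist2h4, chromosome 3) had log2 values of 4.21 and 4.91 in knockdown myotubes at 10 mM and 5.64 and 5.53 at 1 mM, against 4.58 and 4.94 in control myotubes at 10 mM and 5.18 and 5.61 at 1 mM. Every 10 mM array was below every 1 mM array. It fell by 1.03 ± 0.26 on the log2 scale in knockdown myotubes (SE, limma adjusted p = 0.0272), and its change in control myotubes was -0.63 ± 0.26 (adjusted p = 0.123). Leaving out either knockdown array at 1 mM or the first at 10 mM ended the knockdown call, with adjusted p of 0.0779 to 0.135.

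H4c12 (Hist1h4k, chromosome 13) had log2 values of 7.66 and 7.70 in knockdown myotubes at 10 mM and 7.64 and 7.07 at 1 mM, against 7.47 and 7.06 in control myotubes at 10 mM and 7.66 and 7.63 at 1 mM. Its changes were small and of opposite sign, 0.32 ± 0.22 in knockdown and -0.38 ± 0.22 in control myotubes (SE, limma adjusted p = 0.332 and 0.244). H4c9 (Hist1h4i, chromosome 13) had 3.02 and 4.76 in knockdown myotubes at 10 mM and 5.27 and 4.02 at 1 mM, against 3.52 and 2.74 in control myotubes at 10 mM and 2.92 and 3.13 at 1 mM. Its glucose groups overlapped in both backgrounds, with changes of -0.76 ± 0.61 and 0.10 ± 0.61 (limma adjusted p = 0.418 and 0.922).

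**Figure D2:**
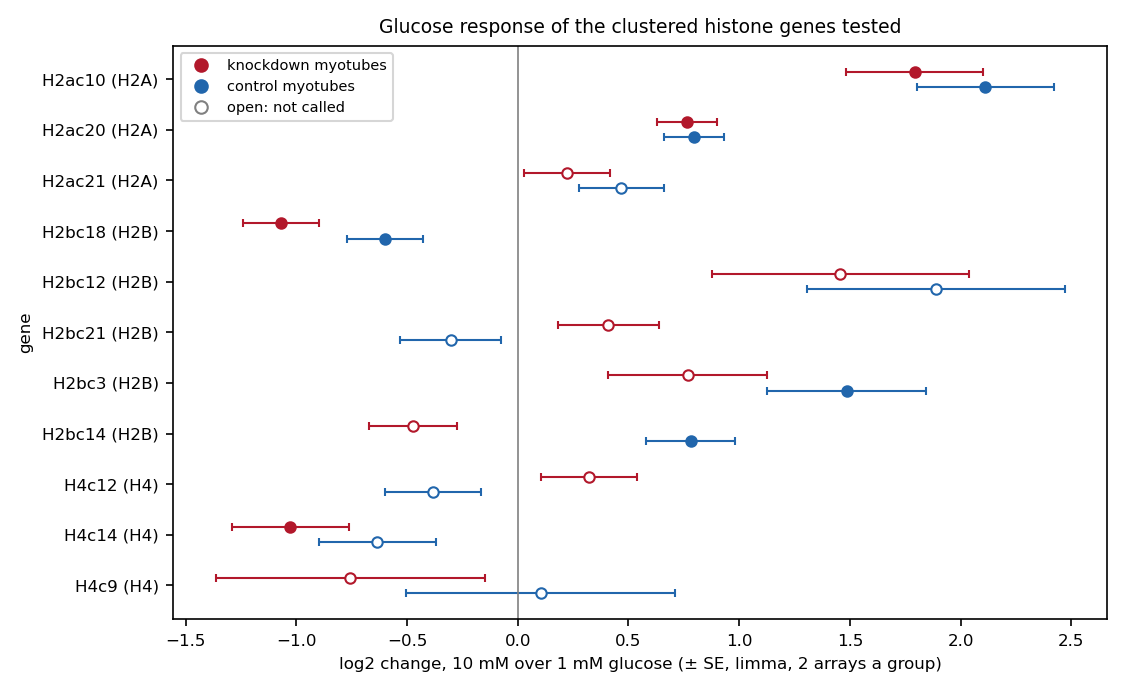
Log2 change at 10 mM over 1 mM glucose (horizontal axis; bars are ± SE from limma with 2 arrays a group) of the 11 tested clustered histone genes in knockdown myotubes (red) and control myotubes (blue); filled points are called at an adjusted p under 0.05. H2ac10 and H2ac20 lie right of 0 and H2bc18 left of 0 in both, and changes run from -1.07 to 1.79 in knockdown and from -0.63 to 2.11 in control myotubes.

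Of the 11 tested members, 7 had the same sign in both glucose comparisons and 4 had opposite signs (H2bc21, H2bc14, H4c12 and H4c9). The share of all tested genes with the same sign in both was not computed, so these counts cannot be set against it. Groups at 10 and 1 mM did not overlap for 9 of the 11 in knockdown myotubes, where that held for 64.2% of all tested genes, and for 10 of the 11 in control myotubes, where it held for 64.4%. The 5 tested members on chromosome 3 gave 1 higher and 2 lower calls in knockdown and 1 higher and 1 lower in control myotubes. The 6 on chromosome 13 gave 1 higher and 0 lower calls in knockdown and 3 higher and 0 lower in control myotubes. Over all tested genes, 25.1% were called in knockdown and 25.3% in control myotubes. Both lower-called genes, H2bc18 and H4c14, lie on chromosome 3, as does H2ac20, which rose.

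Between knockdown and control myotubes no clustered histone gene passed the threshold. These comparisons use the same arrays as the glucose comparisons. At 1 mM glucose, limma called 0 of the 11 tested members, with 2 at an unadjusted p under 0.05, where 1.49% of all tested genes were called (0.233% higher and 1.25% lower) and 15.9% had an unadjusted p that low. The members with the smallest p were H4c9, H2bc21 and H2ac21, with log2 changes of 1.62 ± 0.61, -0.57 ± 0.23 and -0.41 ± 0.19 for knockdown over control (SE, limma adjusted p = 0.257, 0.288 and 0.353). For H4c9 both knockdown arrays, at 5.27 and 4.02, lay above both control arrays, at 2.92 and 3.13, but its change ran from 0.99 to 2.25 with 1 array left out and was called in none of these fits. Groups did not overlap for 5 of the 11, beside 47.1% of all tested genes.

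At 10 mM glucose, limma also called 0 of the 11, with 2 at an unadjusted p under 0.05, where 1.12% of all tested genes were called (0.428% higher and 0.691% lower) and 13.6% had an unadjusted p that low. H2bc14, H2ac21 and H4c12 had the smallest p, with log2 changes of -1.10 ± 0.20, -0.66 ± 0.19 and 0.41 ± 0.22 for knockdown over control (SE, limma adjusted p = 0.0561, 0.189 and 0.477). H2bc14 was at 2.77 and 2.38 in knockdown myotubes, against 3.57 and 3.77 in control myotubes, a difference larger than its replicate spread. With a variance trend and robust moderation it was called (adjusted p = 0.0435), the only such member, and over the alternatives other than leaving out 1 array its adjusted p ran up to 0.113. With 1 array left out it ran from 0.0761 to 0.279. Groups did not overlap for 5 of the 11, beside 45.6% of all.

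The 95% intervals show what these comparisons could leave unseen. For H2ac10 the interval of the knockdown difference was -0.91 to 0.54 at 1 mM and -1.23 to 0.22 at 10 mM. For H2bc18 it was -0.05 to 0.75 at 1 mM and -0.52 to 0.28 at 10 mM, and for H4c12 -0.80 to 0.22 and -0.10 to 0.92. Over the 11 members the bounds reached -1.85 and 3.04 at 1 mM and -2.28 and 2.18 at 10 mM. An uncalled member may therefore differ by anything inside its interval.

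**Figure D3:**
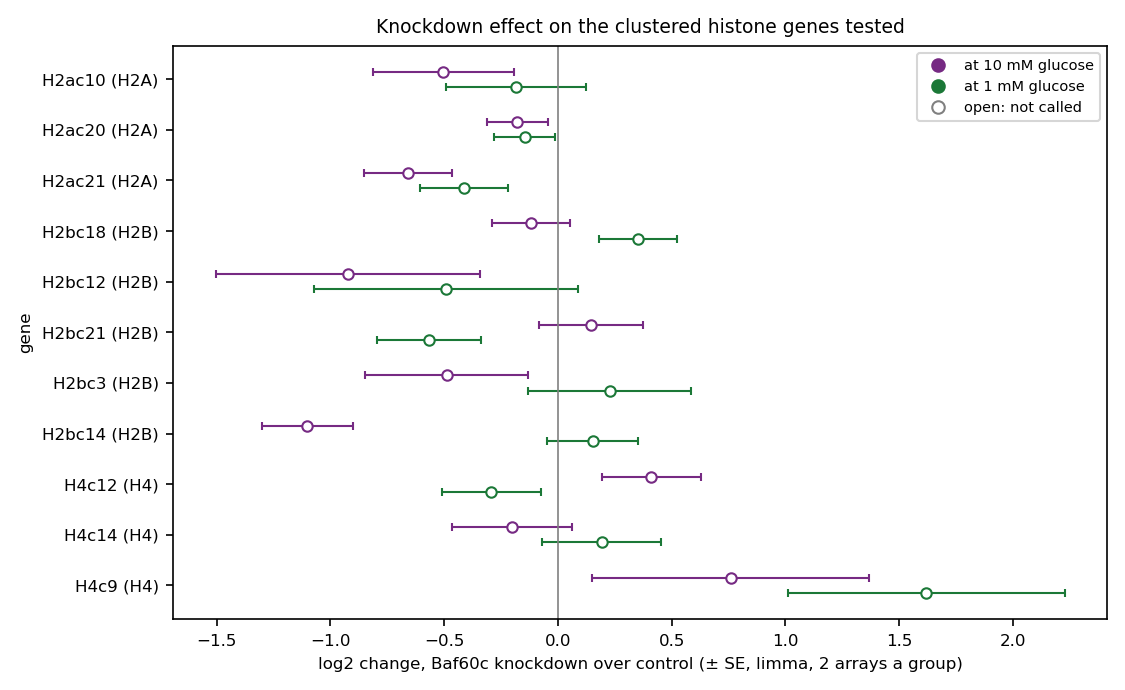
Log2 change in Baf60c knockdown over control myotubes (horizontal axis; bars are ± SE from limma with 2 arrays a group) of the 11 tested clustered histone genes at 10 mM (purple) and 1 mM glucose (green). Open points mark genes that were not called, which is every point; H2bc14 at 10 mM lies at -1.10 and H4c9 at 1 mM at 1.62.

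Whether glucose acted differently in the knockdown was tested directly, as the glucose change in knockdown minus that in control myotubes. Limma called 0 of the 11 members and 0 of the 13308 genes, and 1 member and 7.88% of all tested genes had an unadjusted p under 0.05. That member was H2bc14, at a difference of -1.25 ± 0.28 (SE, limma adjusted p = 0.417). H4c12 and H2bc21 followed, at 0.70 ± 0.31 and 0.71 ± 0.32 (adjusted p = 0.642 and 0.654). The H2ac10 difference was -0.32 with a 95% interval of -1.34 to 0.70, and that of H2bc18 was -0.47 with -1.04 to 0.10. H2bc3, H2bc14 and H4c14, each called in only 1 of the 2 backgrounds, were thus not shown to respond differently in them.

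The 10 members left out as dim were H2ac1, H2ac12, H2ac15, H2bc1, H2bc9, H2bc22, H4c1, H4c2, H4c8 and H4c17, all on chromosome 13. Their log2 values ran from 0.820 to 3.47, and the filter lay at a mean of 2.30. Just inside it was H2bc14, with a mean of 3.05 over the 8 arrays, and just outside it H4c8, with 2.21. H4c8 had log2 values of 2.08 and 2.05 in knockdown myotubes at 10 mM and 3.47 and 2.50 at 1 mM, against 1.48 and 1.38 in control myotubes at 10 mM and 2.54 and 2.17 at 1 mM. Its 4 arrays at 10 mM lay below its 4 arrays at 1 mM. When no gene was filtered out, 1 of these 10 was called in any of the 5 contrasts, H4c1, which fell by 0.57 ± 0.14 on the log2 scale with glucose in knockdown myotubes (SE, limma adjusted p = 0.0332). Its values there were 1.26 and 1.14 at 10 mM and 1.71 and 1.82 at 1 mM, near the low end of the arrays. The testis-specific histone genes H2ac1 and H2bc1 lay between 0.820 and 2.14 on all 8 arrays, and H1f6, a testis-specific linker histone gene, between 1.15 and 1.62.

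Most clustered histone genes were measured only through probe sets that match several of them. Such a probe set gives 1 value for a group of near-identical genes and cannot say which of them moved. There were 37, of which 34 held distinct values and 23 of those passed the filter. They were fitted together with the tested genes, a step chosen after seeing the data. In knockdown myotubes 9 of the 23 rose and 1 fell with glucose, and in control myotubes 7 rose and 0 fell, where 25.1% and 25.3% of all tested genes were called. The 23 sets hold only 11 distinct lists of genes, so they are not 23 separate readings of different genes. Of the 8 fitted H2A probe sets, 6 rose and 1 fell in knockdown and 4 rose in control myotubes. Of the 6 H2B probe sets 2 rose in each background, of the 6 H3 probe sets 1 rose in each, and of the 2 H4 probe sets 0 were called in either. The H2A sets hold 3 distinct lists, and 6 of the 8 list the same 10 genes, H2ac4, H2ac6, H2ac7, H2ac8, H2ac11, H2ac12, H2ac13, H2ac22, H2ac23 and H2ac24. Of those 6, 4 rose, 1 fell and 1 was not called in knockdown, and 3 rose and 3 were not called in control myotubes, so probe sets of 1 group of genes read in opposite directions. Among the rising sets, those listed first under H2ac11 and H2ac6 were dim, each with a mean of 2.70 over the 8 arrays. Their knockdown means at 1 mM, 1.80 and 2.52, lie below the log2 bound of 3, so detection there is unknown. The knockdown mean of the H2ac11 set at 10 mM, 2.90, also lies below that bound, so detection is unknown on both sides of that call. The H2ac11 set also rose in control myotubes, from a mean of 2.55 at 1 mM. It passed the filter of 2.30 only through its 10 mM arrays, so its rises were favoured by that selection.

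Of these 6 sets, the one listed first under H2ac4 had log2 values of 7.41 and 6.85 in knockdown myotubes at 10 mM and 5.49 and 3.27 at 1 mM, against 7.95 and 7.63 in control myotubes at 10 mM and 4.35 and 3.92 at 1 mM. Every 10 mM array lay above every 1 mM array, although the knockdown arrays at 1 mM were far apart. The log2 change was 2.75 ± 0.62 in knockdown (SE, limma adjusted p = 0.0168) and 3.66 ± 0.62 in control myotubes (adjusted p = 0.00560), where the fold difference was 12.6. The one listed first under H2ac22 had 9.15 and 8.60 in knockdown myotubes at 10 mM and 7.02 and 7.07 at 1 mM, against 9.22 and 9.12 in control myotubes at 10 mM and 6.61 and 6.53 at 1 mM. It rose by a log2 change of 1.83 ± 0.19 in knockdown (adjusted p = 0.000659) and 2.60 ± 0.19 in control myotubes (adjusted p = 0.000208).

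An H2B probe set of 12 genes, which include H2bc6 and the members H2bc9, H2bc12 and H2bc14, had 10.52 and 10.15 in knockdown myotubes at 10 mM and 9.43 and 9.48 at 1 mM, against 10.67 and 10.45 in control myotubes at 10 mM and 9.11 and 9.19 at 1 mM. Its replicates lay close together, and it rose by 0.88 ± 0.16 in knockdown and 1.41 ± 0.16 in control myotubes (log2, SE, limma adjusted p = 0.00745 and 0.00126). Of the H3 genes, which have no probe set of their own, the 1 set called was that of H3c15 and 7 others. It had 8.18 and 8.33 in knockdown myotubes at 10 mM and 7.81 and 7.67 at 1 mM, against 8.32 and 8.43 in control myotubes at 10 mM and 7.81 and 7.84 at 1 mM. This H3 set rose by 0.52 ± 0.13 and 0.55 ± 0.13 (log2, SE, limma adjusted p = 0.0260 and 0.0200). The 4 other fitted sets that list the same 8 H3 genes were not called in either background.

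The 1 shared set that fell, a dim one listed first under H2ac23, names those same 10 H2A genes, so its fall cannot be given to other genes than the rises above. It had 2.74 and 2.40 in knockdown myotubes at 10 mM and 4.01 and 3.30 at 1 mM, against 2.57 and 2.33 in control myotubes at 10 mM and 2.38 and 2.14 at 1 mM. The knockdown arrays at 1 mM stood above the other 6. It fell by 1.08 ± 0.25 on the log2 scale with glucose in knockdown myotubes (SE, limma adjusted p = 0.0189), and at 1 mM it was the 1 shared set of the 23 called in knockdown over control, higher by 1.39 ± 0.25 (adjusted p = 0.0499). At 10 mM limma called 0 of the 23 in that comparison, with 4 at an unadjusted p under 0.05. Of all tested genes, 1.49% were called at 1 mM and 1.12% at 10 mM, where 13.6% had an unadjusted p that low. The difference between the glucose responses was called for 0 of the 23, with 3 at an unadjusted p under 0.05, beside 7.88% of all tested genes.

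**Figure D4:**
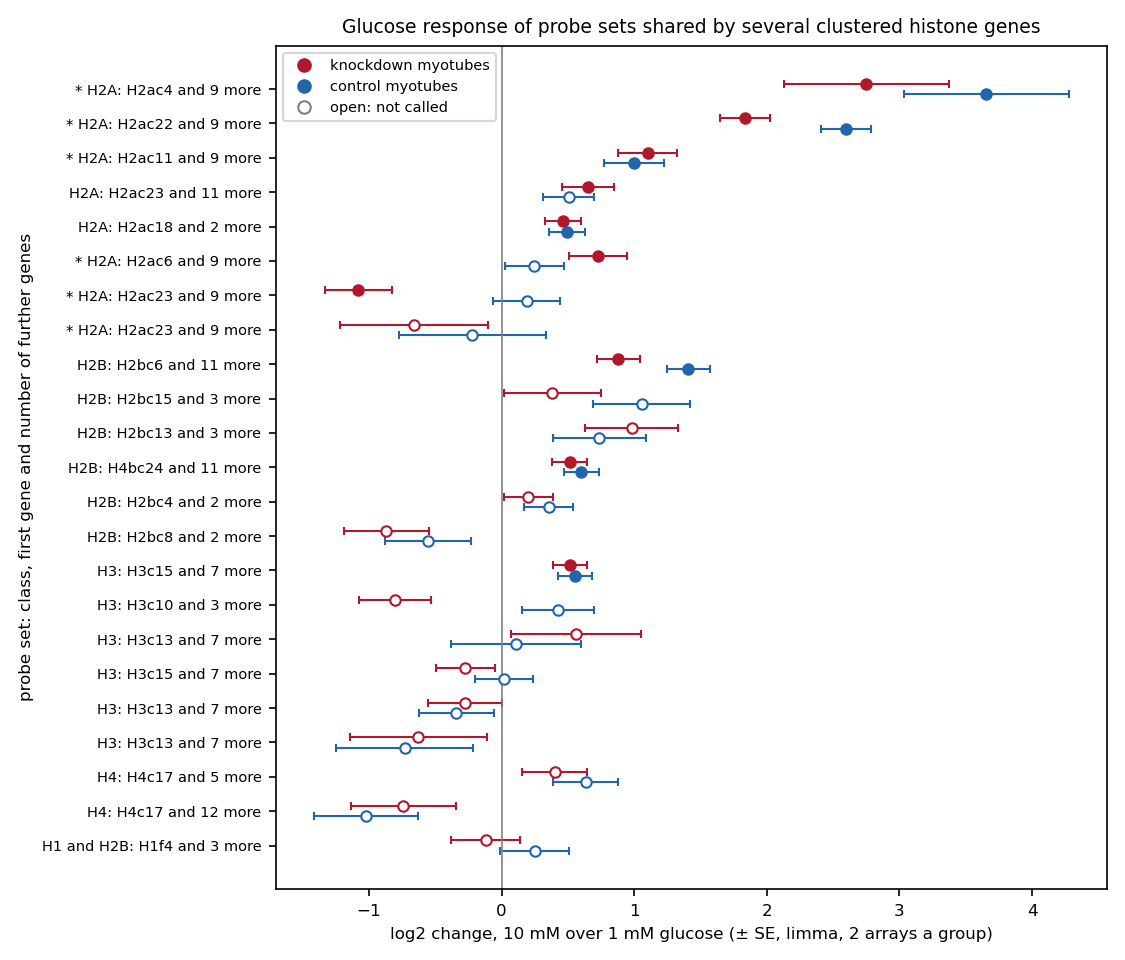
Log2 change at 10 mM over 1 mM glucose (horizontal axis; bars are ± SE from limma with 2 arrays a group) of the 23 fitted probe sets shared by several clustered histone genes, in knockdown myotubes (red) and control myotubes (blue), ordered by histone class; filled points are called, and asterisks mark the 6 H2A sets that list the same 10 genes. Those listed under H2ac4 and H2ac22 lie farthest right, at 3.66 and 2.60 in control myotubes, another lies at -1.08 in knockdown myotubes, and the 2 H4 sets have no filled point.

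The linker histone genes H1f1 to H1f6 belong to the same cluster and are no members here. H1f5 had log2 values of 4.91 and 5.10 in knockdown myotubes at 10 mM and 2.98 and 2.02 at 1 mM, against 5.28 and 5.39 in control myotubes at 10 mM and 2.48 and 2.26 at 1 mM. It rose by a log2 change of 2.50 ± 0.29 in knockdown and 2.96 ± 0.29 in control myotubes (SE, limma adjusted p = 0.00101 and 0.000636). Its means at 1 mM, 2.50 in knockdown and 2.37 in control myotubes, lie below the log2 bound of 3, so whether they are above background is unknown. H1f2, the other tested gene of the polyadenylated list, was not called, with changes of 0.41 ± 0.21 and 0.45 ± 0.21 (adjusted p = 0.205 and 0.166). H1f1, H1f3 and H1f6 were too dim to test.

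Variant histones are made outside S phase as well and replace the clustered ones at particular sites. Of the 7 tested, 3 rose and 0 fell in knockdown myotubes and 4 rose and 0 fell in control myotubes, with median changes of 0.58 and 1.10. The shares of all tested genes that rose with glucose were 14.5% in knockdown and 13.2% in control myotubes. H1f10, a linker variant, rose by 0.70 ± 0.14 and 1.26 ± 0.14, and Cenpa, the centromeric H3, by 1.02 ± 0.26 and 1.96 ± 0.26 (log2, SE, limma adjusted p = 0.00115 to 0.0268). H2ax, the variant phosphorylated at DNA breaks, rose by 0.88 ± 0.19 and 1.10 ± 0.19 (adjusted p = 0.0137 and 0.00579). H2az2 rose in control myotubes by 1.54 ± 0.19 (adjusted p = 0.00167), and its knockdown change was 0.58 ± 0.19 (0.0669).

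The genes that transcribe and process histone pre-mRNA mostly stayed under the threshold. Of 16 tested, 1 rose and 1 fell in knockdown and 0 rose and 1 fell in control myotubes, with median changes of -0.13 in each. Most tested genes stayed under it too: glucose calls made up 25.1% of them in knockdown and 25.3% in control myotubes. Hinfp, the factor that activates H4 promoters, had log2 values of 5.56 and 5.62 in knockdown myotubes at 10 mM and 6.50 and 6.13 at 1 mM, against 5.88 and 5.62 in control myotubes at 10 mM and 6.53 and 6.28 at 1 mM. It fell by 0.73 ± 0.18 in knockdown and fell by 0.65 ± 0.18 in control myotubes (log2, SE, limma adjusted p = 0.0223 and 0.0336). Lsm11, a subunit of the U7 particle that helps cut histone pre-mRNA, rose by 0.86 ± 0.25 in knockdown myotubes (adjusted p = 0.0427), against -0.15 ± 0.25 in control myotubes (0.698). Npat had changes of 0.02 ± 0.18 and -0.09 ± 0.18, and Slbp of -0.11 ± 0.22 and 0.43 ± 0.22, none called (adjusted p = 0.199 to 0.948).

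Among 18 tested histone chaperones and assembly factors, 4 rose and 2 fell in knockdown and 2 rose and 2 fell in control myotubes. Of all tested genes, 14.5% were called higher and 10.6% lower in knockdown, and 13.2% higher and 12.1% lower in control myotubes. The control counts lie close to those shares. Asf1b, a chaperone of new H3 and H4, rose by 1.80 ± 0.29 and 1.19 ± 0.29, and Atrx, which deposits H3.3 with Daxx, by 0.51 ± 0.15 and 0.63 ± 0.15 (log2, SE, limma adjusted p = 0.00396 to 0.0426). Npm1, a nucleolar chaperone, fell by 0.74 ± 0.16 and fell by 1.08 ± 0.16, and Ipo4, an importer of new histones, fell by 0.60 ± 0.13 and fell by 0.75 ± 0.13 (adjusted p = 0.00286 to 0.0126). Chaf1b, a subunit of the assembly factor that works at the replication fork, rose in knockdown myotubes by 1.07 ± 0.23 (adjusted p = 0.0138).

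Cell cycle genes moved with the same glucose contrast. For glucose, 14.5% of all tested genes rose and 10.6% fell in knockdown, and 13.2% rose and 12.1% fell in control myotubes. Of 35 tested S phase genes, 22 rose and 0 fell in knockdown and 18 rose and 2 fell in control myotubes, with median log2 changes of 0.82 and 0.74. Of 17 tested mitosis genes, 17 rose in each, with medians of 2.31 and 2.48. Birc5 passed the filter of 2.30 only through its 10 mM arrays, so its rise was favoured by that selection. Its 1 mM means were 2.17 in knockdown and 2.28 in control myotubes, and those of Bub1b were 2.94 and 2.59. These lie below the log2 bound of 3, so detection there is unknown. Rrm2, a ribonucleotide reductase subunit that makes deoxynucleotides, rose by 1.97 ± 0.15 and 2.08 ± 0.15, and Top2a, the topoisomerase of dividing cells, by 2.53 ± 0.16 and 3.25 ± 0.16 (log2, SE, limma adjusted p = 7.79e-05 to 0.000229). The 2 that fell in control myotubes were Cdt1 and Cdc25a, a licensing factor and a Cdk phosphatase of early S phase, with changes of -0.95 ± 0.19 and -0.76 ± 0.17 (adjusted p = 0.0113 and 0.0177). Of 5 tested Cdk inhibitors, 3 rose in knockdown and 2 in control myotubes, Cdkn2d and Cdkn2c in both. In knockdown over control, limma called 0 of the 98 tested genes of these 6 lists at either glucose level. Of all tested genes, 1.12% were called at 10 mM and 1.49% at 1 mM. Among the 98, 11 had an unadjusted p under 0.05 at 10 mM and 13 at 1 mM, beside 13.6% and 15.9% of all tested genes. With a variance trend and robust moderation, 1 of the 98 was called at 10 mM and 3 at 1 mM.

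**Figure D5:**
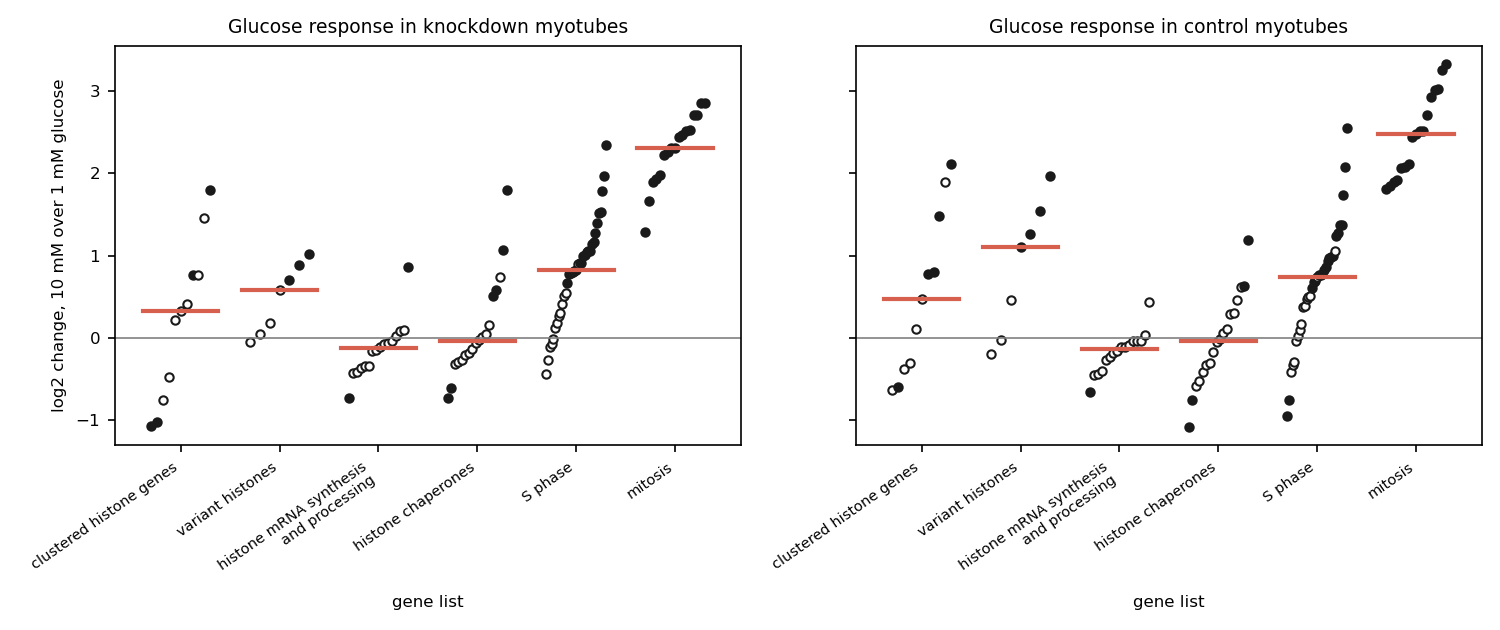
Log2 change at 10 mM over 1 mM glucose (vertical axis) of each tested gene of 6 lists in knockdown myotubes (left) and control myotubes (right); points are genes ordered by change, filled where called, and red lines are medians. All 17 mitosis genes are filled and above 1, whereas the clustered histone genes lie on both sides of 0.

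Markers of cell types also moved with glucose. The mean log2 value of the 17 mitosis genes was 6.76 and 6.35 on the knockdown arrays at 10 mM and 4.47 and 4.06 at 1 mM, against 6.95 and 6.55 on the control arrays at 10 mM and 4.23 and 4.35 at 1 mM. For glucose, 14.5% of all tested genes rose and 10.6% fell in knockdown, and 13.2% rose and 12.1% fell in control myotubes. Of 6 fibroblast markers, 5 rose in knockdown and 6 in control myotubes, with means per array of 8.56 to 8.59 in knockdown and 8.59 to 8.78 in control myotubes at 10 mM and 7.26 to 7.41 at 1 mM. Among them, Lum lay at 1.80 to 2.56 on the 1 mM arrays. It passed the filter of 2.30 only through its 10 mM arrays, so its rise in control myotubes was favoured by that selection. Of 15 myotube markers, 15 rose with glucose in knockdown and 10 in control myotubes. Of 9 markers of undifferentiated myoblasts, 3 rose and 2 fell in each. Of 5 macrophage markers 2 were tested; both fell with glucose in knockdown myotubes and neither was called in control myotubes, and Adgre1 lay at 1.31 to 2.37 on the 8 arrays. Myotube markers were the list that moved with the shRNA: 7 of 15 were lower in knockdown at 10 mM and 11 of 15 at 1 mM, with 0 higher. Of all tested genes, 0.691% were lower in knockdown at 10 mM and 1.25% at 1 mM. The part of any of these cell types, or of dividing cells, in the histone gene values was not tested.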

How the data were processed

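Total RNA of 8 C2C12 samples in 4 groups was measured on Affymetrix arrays. The authors deposited 1 log2 value per probe set, and the submitters' processing notes name RMA and affy without versions. RMA brings arrays to a common distribution and shrinks dim signals. Names came from the platform annotation: of 41345 probe sets, 23521 had 1 gene, 1814 several and 16010 none. Near-identical histone sequences could also bind a single-gene probe set, which was not tested. Genes below the 40th percentile of mean value were left out. Limma 3.58.1 (R 4.3.3) fitted 4 group means to 13308 genes with 4 residual degrees of freedom, and the number of arrays limits precision: the median SE was 0.17. On simulated data for the control glucose comparison, with 13308 genes, 51 of 100 changes of 1 and 77 of 100 changes of 2 log2 units were recovered, with 8 false calls. No other genes were changed there and spreads were shuffled among genes, whereas 25.3% of all tested genes were called in the real comparison. The recovery may therefore not carry over to it. Members and lists were chosen with earlier results of these data known. The rule for named genes took every tested member, the 3 smallest p where none was called, and up to 4 called genes of a list. Cdt1, Cdc25a, Npat, Slbp, H1f5, H4c8, H4c1, Birc5, Bub1b and Lum were named after their values were seen. Filters, scalings, moderation settings, left-out arrays and a replicate block were the alternatives. Replicate numbers did not pair the samples: deviations of same-numbered arrays correlated at -0.04 to 0.11.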

Additional observations from a re-analysis of the deposited data

How the results depend on the processing

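With each array left out in turn, the number of clustered histone genes called for glucose was 3 to 4 of 11 in knockdown and 2 to 5 in control myotubes, and 0 in each knockdown comparison and for the difference of responses. An arm with 1 array is assumed to vary like the other groups. Under the other alternatives the glucose count was 4 to 5 in knockdown and 3 to 6 in control myotubes, where 3 came from a filter at the 60th percentile, which left 6 members. Centring arrays on their medians gave 5 higher and 0 lower calls in control myotubes. Without a filter on dim genes the median change was -0.094 in knockdown and 0.019 in control myotubes, over 21 members. Moderation with a variance trend and robust estimates called 1 member in knockdown over control at 10 mM. The changes of direction were all in uncalled changes. With both probe sets averaged, H2ac21 turned to -0.14 for glucose in knockdown myotubes and to 0.0099 for knockdown at 1 mM. With 1 array left out, glucose changes in knockdown myotubes ran from -0.00070 to 0.44 for H2ac21 and from -1.63 to 0.11 for H4c9, and in control myotubes from -0.29 to 0.49 for H4c9, which was -0.0045 without the first control array at 1 mM. Likewise H2ac10 ran from -0.37 to 0.0051 for knockdown at 1 mM and from -0.78 to 0.14 for the difference of responses, and H2bc18 from -0.26 to 0.017 for knockdown at 10 mM. The cause was not tested. H2ac10 and H2ac20 kept their calls in both glucose comparisons under every alternative run, and so did H2bc18 in knockdown myotubes.

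With the replicate block, although the numbers did not pair the samples, 5 members were called for glucose in knockdown and 5 in control myotubes and 0 in the other comparisons. H2bc12 was called under it in both, at limma adjusted p = 0.00309 and 0.00165, and H2bc18 in control myotubes was not (0.0631). The median changes were as without the block, 0.32 in knockdown and 0.47 in control myotubes.

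Over all genes, calls for knockdown over control at 1 mM numbered 198, against 18 with only the compared groups, 437 with the stricter filter, 598 with trend and robust moderation and 30 to 129 with an array left out. At 10 mM they numbered 149, against 6, 291, 467 and 0 to 76, with 69 unfiltered and 73 under the block. Glucose calls over all genes were as few as 1903 (of 3342 with all arrays) in knockdown and 2046 (of 3372) in control myotubes with an array left out. With 2 arrays a group, the 95% interval of a typical change reached 0.41 log2 units to either side.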
